A study of Mus musculus with 4 samples.

Results

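The genes described here encode the corepressor complex that the nuclear receptor REV-ERBα, product of Nr1d1, brings to DNA, together with deacetylases related to it. The 9 genes listed were Ncor1, Hdac3, Tbl1x, Tbl1xr1, Gps2, Hdac1, Hdac2, Sin3a and Sirt1. They were taken by name, with earlier results of these data already known. A gene entered through the probe sets annotated to its symbol alone, and where it had several, the brightest on average stood for it. In this way 8 of the 9 were measured, all 8 passed the filter on dim probe sets, and they are 8 of 13587 genes tested. Ncor1, the scaffold that gives the complex its name, was not analysed here, so the values below concern its partners.

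RNA came from the ventral midbrain of male mice, where the substantia nigra and ventral tegmental area with their dopamine neurons lie. There were 2 arrays from Rev-erba knock-out mice (RKO) and 2 from wild-type mice (WT). Both groups were on a C57BL/6J background, 10 to 15 weeks old, entrained for more than 10 days to 12 h of light per day and then kept for 2 days in constant darkness before they were killed on the following day, with no other treatment named. Neither the clock hour of collection, nor the deleted part of Nr1d1, nor the number of mice behind an array is given in the labels used here. They call the replicates biological; where these were not separate animals, the p-values measure only the spread between arrays, which may be technical.

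Unliganded or repressive nuclear receptors silence genes by recruiting corepressors such as NCoR, a large scaffold that carries the histone deacetylase HDAC3 together with TBL1X, TBL1XR1 and GPS2. Binding to NCoR switches the enzyme activity of HDAC3 on, and removal of acetyl groups from histones lowers transcription nearby. REV-ERBα lacks the helix through which most nuclear receptors recruit coactivators, so it acts as a repressor, and Arntl, which encodes the clock activator BMAL1, is its best known target. HDAC1 and HDAC2 sit in other complexes, among them the SIN3 complex built on SIN3A, while SIRT1 is a deacetylase that needs NAD+ and also acts on clock proteins. The comparison of RKO with WT asks whether the transcripts of this machinery differ in tissue that lacks the receptor.

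None of the 8 measured genes passed the test. In limma, with Benjamini-Hochberg adjustment over all tested genes, 0 of 8 had an adjusted p under 0.05 and 0 had an unadjusted p under 0.05, where 1.6% of all tested genes passed after adjustment (0.64% higher and 0.964% lower in RKO) and 12.8% had such an unadjusted p. The log2 differences, RKO minus WT, ran from -0.056 for Hdac3 to 0.0010 for Hdac2, with a median of -0.025 beside -0.012 over all tested genes. The 95% intervals of all 8 held 0. On the linear scale, the lowest bound of these intervals was a difference of -12.5% from WT, for Sirt1, and the highest was 10.8%, for Sin3a. The smallest log2 difference called among all genes had a size of 0.26. A missed threshold does not show that a level was equal, and the intervals give the sizes that 2 arrays a group leave possible. In tissue RNA, fewer cells of a type and less RNA per cell cannot be told apart.

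**Figure D1:**
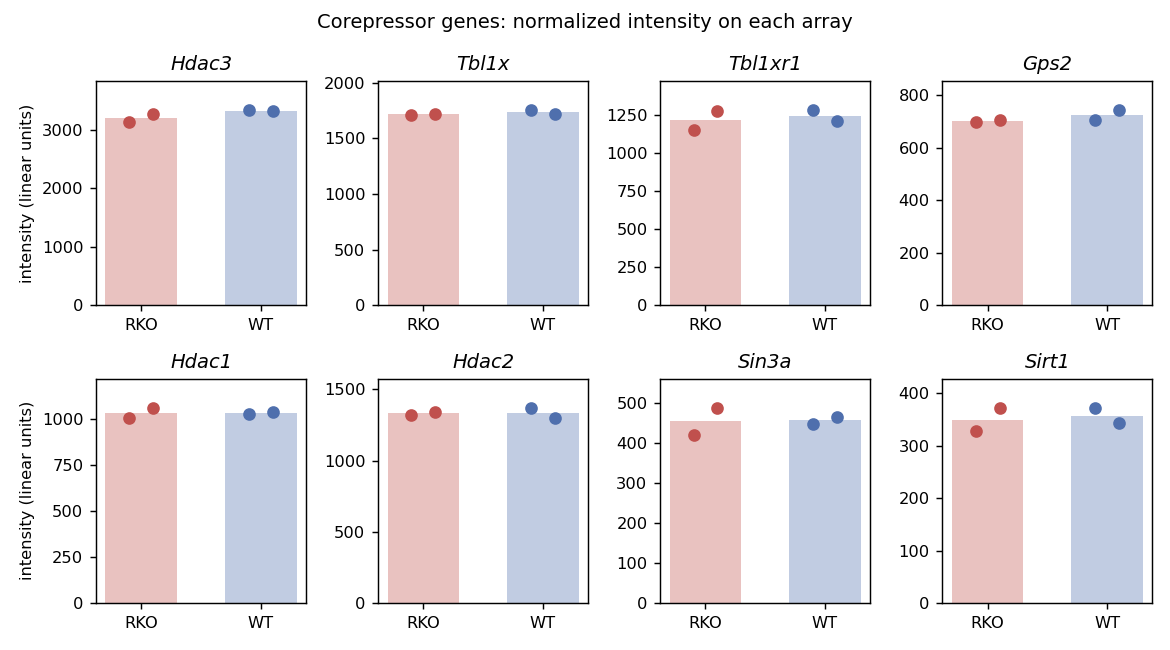
Normalized intensity (linear units, axes from 0) of the 8 measured corepressor genes, 1 panel per gene, with RKO left of WT. Bars are means of 2 arrays and points are single arrays; the bars of the 2 groups lie close together in every panel, and the lowest and highest arrays of Sin3a, at 420.3 and 487, are both RKO arrays.

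Hdac3 encodes the catalytic deacetylase of the NCoR complex. Its intensity was 3135 and 3277 in the RKO arrays, against 3338 and 3328 in the WT arrays. Both RKO values lay below both WT values, which was the case in one direction or the other for 41.8% of all tested genes. Hdac3 averaged 3206 ± 100.2 in RKO and 3333 ± 7.09 in WT (SD, n = 2 each), a log2 difference of -0.056 (SE 0.0562, limma adjusted p = 0.779). The interval of this log2 difference went from -0.18 to 0.068, a difference of -11.8% to 4.81% from WT on the linear scale.

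Among the tested genes, the 3 whose pattern over the 4 arrays was most like that of Hdac3 were Ilkap, Bpnt2 and Man2b1. Likeness was the root mean square difference of log2 values, each taken as a deviation from the gene's own mean, and it was 0.0024, 0.0026 and 0.0027 for these genes among 13586 compared. With 4 arrays, so close a match describes these arrays only.

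Tbl1x and Tbl1xr1 encode related WD40-repeat proteins that bind the scaffold and help to exchange corepressors for coactivators. Tbl1x had intensities of 1713 and 1720.2 in RKO, against 1751 and 1720.6 in WT. Its RKO values lay below both WT values, but the higher of them by less than 1 intensity unit, and the log2 difference was -0.016 (SE 0.0548, limma adjusted p = 0.951). Tbl1xr1 had intensities of 1156 and 1278 in RKO, against 1283 and 1212 in WT. Here the groups overlapped, and the log2 difference was -0.037 (SE 0.0652, limma adjusted p = 0.894). A dimmer probe set of Tbl1xr1 gave 949 and 1057 in RKO, against 1015 and 1024 in WT, with a log2 difference of -0.025. RKO replicate 1 was the lowest array on either probe set of the gene.

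Gps2 encodes a small subunit that joins NCoR to TBL1X and also restrains inflammatory signalling. Its intensity was 698 and 705 in RKO, against 707 and 744 in WT. The RKO values were the lower ones, yet the WT arrays differed from each other by more than the groups did. The log2 difference was -0.048 (SE 0.0568, limma adjusted p = 0.826).

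Hdac1 and Hdac2, the paired class I deacetylases of the SIN3, NuRD and CoREST complexes, lay closest to 0 of the 8 genes. Hdac1 had intensities of 1006 and 1060.2 in RKO, against 1028 and 1038 in WT. The RKO arrays lay on either side of the WT arrays, and the log2 difference was -0.00017 (SE 0.0570, limma adjusted p = 1). A dimmer probe set of Hdac1 read 922 and 963 in RKO, against 935 and 944 in WT. The RefSeq gene table also lists a pseudogene, Hdac1-ps, and the annotation gives both probe sets the same transcripts, so which copy each one reads is uncertain. Hdac2 had intensities of 1322 and 1344 in RKO, against 1369 and 1296 in WT. In this case the WT arrays enclosed the RKO arrays, with a log2 difference of 0.0010 (SE 0.0573, limma adjusted p = 0.998).

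Sin3a encodes the scaffold that holds HDAC1 and HDAC2. Its intensity was 420.3 and 487 in RKO, against 448 and 465 in WT. The RKO arrays were the lowest and the highest of the 4, and their log2 distance of 0.21 was the widest RKO distance among the 8 genes. The log2 difference between the groups was -0.011 (SE 0.0723, limma adjusted p = 0.977).

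Sirt1, the NAD+-dependent deacetylase, had intensities of 328 and 372 in RKO, against 372 and 343 in WT. RKO replicate 1 was the lowest array and the other three overlapped between the groups. The log2 difference was -0.033 (SE 0.0721, limma adjusted p = 0.920). Among the measured genes, Sirt1 had the widest log2 distance between its WT arrays, 0.12.

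Sirt1 was also the 1 listed gene whose promoter held an E-box, the site bound by BMAL1 and its partner CLOCK. RefSeq promoter windows of GRCm38.p6, from 250 bases before a gene's start to 50 after it, were matched for 7 of the 9 genes (9 windows), Ncor1 among them and Hdac1 and Hdac3 not. The letters CACGTG, which read the same on both strands, were found in 1 of these 9 windows, against 7.15% of 32851 windows of the same length. That window held the E-box at 2 places. They are shown for their letters only, and whether they bear on the level of Sirt1 was not tested. The stretches chr10:63339133-63339162 and chr10:63339061-63339090, both on the minus strand and read 5′ to 3′ along the gene, have the E-box in capitals, beginning 115 and 43 bases before the start.
Sirt1 distal E-box: gcggcgcccggcCACGTGacccggcgtgtt
Sirt1 proximal E-box: ggaggggcgggtCACGTGacggggtttaaa
The letters AGGTCA, the core of the element that REV-ERBα binds, were searched on both strands and found in 0 of the 9 windows, against 16.3% of all windows. The windows of the listed genes differed in base composition from the rest, with 38.3% to 79.0% G and C (79.0% in Sirt1) and 7 of 9 above the median window's 52.7%, which was not accounted for in either motif count. A match is a description of the letters and no proof of binding, and their absence says only that they are not in these windows.

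**Figure D2:**
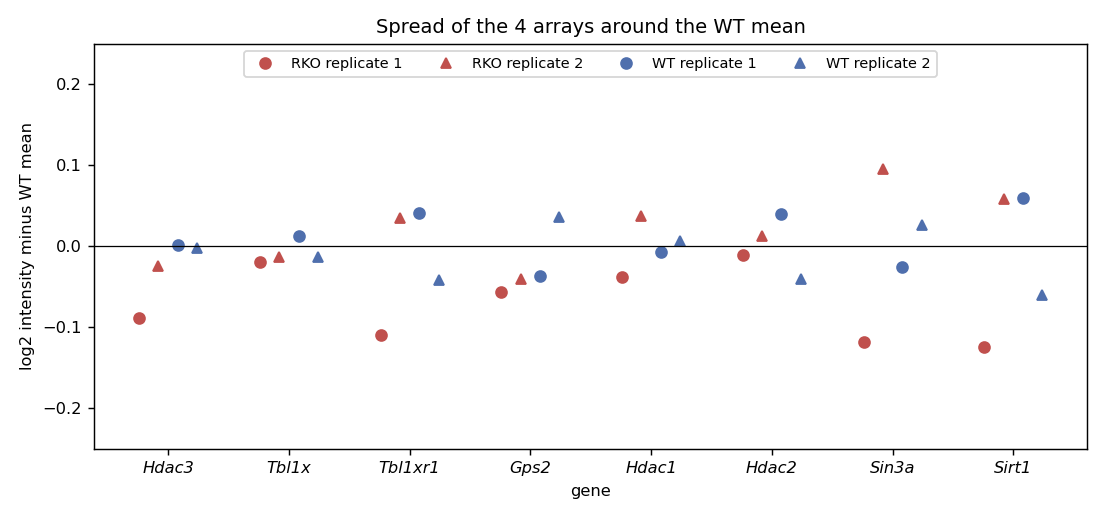
Log2 intensity of each array minus the mean of the 2 WT arrays, for the 8 measured corepressor genes (x axis), with RKO replicates left of WT replicates. RKO replicate 1 lies below 0 in all 8 genes and RKO replicate 2 in 3 of them. The points of the 2 groups are apart in 3 of 8 genes (Hdac3, Tbl1x and Gps2), beside 41.8% of all tested genes.

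For most of these genes the arrays of a group differed from each other by more than the groups did. In 6 of the 8 genes the log2 distance between the RKO arrays exceeded the difference between the groups, which held for 54.7% of all tested genes. In 7 the distance between the WT arrays exceeded that difference, and the share over all tested genes is not given here. A distance between single arrays varies more than a difference between means of 2 arrays. The groups were apart in 3 of 8 (Hdac3, Tbl1x and Gps2), beside 41.8% of all tested genes. Of the log2 differences, 7 of 8 lay below 0, where 56.8% of all tested genes did. The RKO arrays were not alike in this respect. RKO replicate 1 was lower than RKO replicate 2 in 8 of 8 genes, beside 68.1% of all tested genes, and it was the lowest of the 4 arrays in 7 of 8, beside 43.6%. Its median intensity over all tested genes was the lowest, 539.8, against 558.6 in RKO replicate 2 and 558.7 and 558.6 in WT, while over all probe sets, dim ones included, it was the highest, 240.1, against 235.7 in RKO replicate 2 and 236.8 and 236.3 in WT. Without RKO replicate 1 the median log2 difference of the 8 genes was 0.024, and without RKO replicate 2 it was -0.072. The median over all tested genes turned sign in the same way, at 0.0051 and -0.031. Without RKO replicate 1 the log2 difference was 0.095 for Sin3a, 0.058 for Sirt1, 0.038 for Hdac1 and 0.035 for Tbl1xr1, while Hdac3 (-0.024), Tbl1x (-0.013) and Gps2 (-0.041) remained below 0.

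The same arrays did register the missing receptor. Nr1d1 had intensities of 1259 and 1229.7 in RKO, against 2897 and 3099 in WT, a log2 difference of -1.27 (SE 0.0589, limma adjusted p = 2.44e-06). Because the deleted part is not given, it is unknown whether the probe set reads a stretch that the mutant lacks. Among the REV-ERB response clock genes, 3 of 4 tested rose, beside 0.64% of all tested genes. They were Arntl (0.47, intensities of 581 and 613 in RKO against 420.0 and 442 in WT), Nfil3 (0.47) and Cry1 (0.33). Clock stood at 0.071 and did not pass. In each of these 4 genes the RKO arrays lay above the WT arrays. The groups were apart, in one direction or the other, in 41.8% of all tested genes. The log2 difference of Sirt1 had an interval of -0.19 to 0.13, and a link between its E-boxes and its level was not tested. The rises of Arntl, Nfil3 and Cry1 lost their call with no filter on dim probe sets, and Cry1 also without WT replicate 1, RKO replicate 1 or RKO replicate 2.

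**Figure D3:**
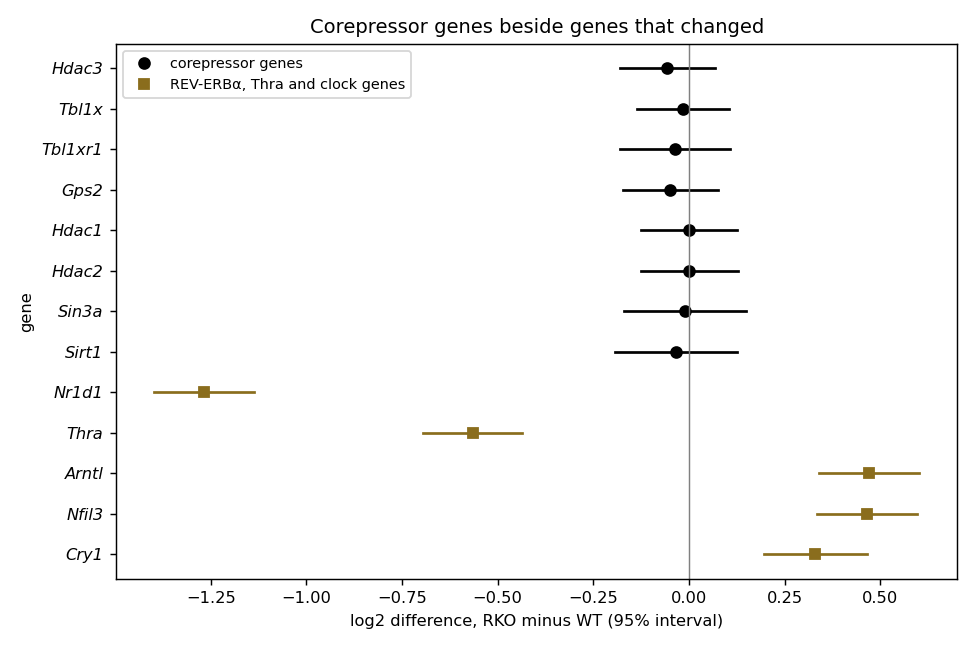
Log2 difference, RKO minus WT, with its 95% interval from limma (x axis), for the 8 measured corepressor genes (circles) and for Nr1d1, Thra, Arntl, Nfil3 and Cry1 (squares). The intervals of the 8 corepressor genes all cross 0, from -0.19 to 0.15 at their outermost, and those of the other five genes do not.

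Beyond the listed genes, the tested corepressors and coactivators gave no call either. Of 83 tested genes in 8 lists of cofactors and their regulators, 0 passed in limma and 2 (2.41%) had an unadjusted p under 0.05, beside 1.6% and 12.8% of all tested genes, so a count of 0 calls among 83 is near that background. Their median log2 difference was -0.035, 61 (73.5%) lay below 0 and 22 above, beside 56.8% of all tested genes below 0, and the lowest adjusted p was 0.299. No log2 difference among them was below -0.15 or above 0.11. These genes share the 4 arrays, so their signs are not independent of each other.

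Among other NCoR partners, 0 of 7 tested passed. Coro2a, a subunit of the same complex, stood at -0.075 on the log2 scale, and the histone demethylase Kdm4a at -0.0045. Both genes of the 83 with an unadjusted p under 0.05 were in this list. They were Zbtb33, which encodes the methyl-DNA-binding repressor Kaiso (intensities of 352 and 377 in RKO against 414 and 394 in WT, log2 difference -0.15, adjusted p = 0.324), and the kinesin Kif13a (535 and 540 in RKO against 592 and 593 in WT, -0.14, adjusted p = 0.299). In both genes the RKO arrays lay below the WT arrays. Ankrd11, at 0.019, was the highest of the list.

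In the SIN3 complex 0 of 17 other subunits passed. Ing2, a reader of methylated histone H3, was the highest at 0.11 on the log2 scale (intensities of 226 and 226 in RKO against 209 and 211 in WT, adjusted p = 0.471), Arid4a the lowest at -0.074, and Sin3b, the paralogue of Sin3a, stood at -0.035. In NuRD, which joins HDAC1 and HDAC2 to a nucleosome remodeller, 0 of 13 passed, with Chd5 at 0.067, the remodeller Chd4 at -0.064 and the methyl-DNA-binding Mbd2 at -0.11. In CoREST, which adds the histone demethylase Kdm1a (-0.081), 0 of 9 passed, with Gse1 at 0.062 and Rcor3 at -0.085.

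None of the 8 other zinc-dependent deacetylases passed, and 1 of them lay above 0. Hdac8, the remaining class I enzyme, had a log2 difference of -0.046, and the list ran from -0.11 for Hdac9 to 0.048 for Hdac11. Of the 6 other sirtuins 0 passed, from -0.13 for Sirt7 to 0.050 for Sirt5, with Sirt2, abundant in myelinating cells, at -0.067. Of 12 genes that regulate SIRT1 or supply its NAD+, 0 passed. Nampt, the rate-limiting enzyme of NAD+ salvage and a clock output in other tissues, had intensities of 966 and 1015 in RKO, against 1077 and 962 in WT, and a log2 difference of -0.039 (adjusted p = 0.887). In Nampt the WT arrays were the highest and the lowest. Naprt at -0.086 and Nmnat3 at 0.064 bounded that list. Of 13 coactivators and acetyltransferases 0 passed, from Ncoa1 at -0.095 to Ppargc1b at 0.041.

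**Figure D4:**
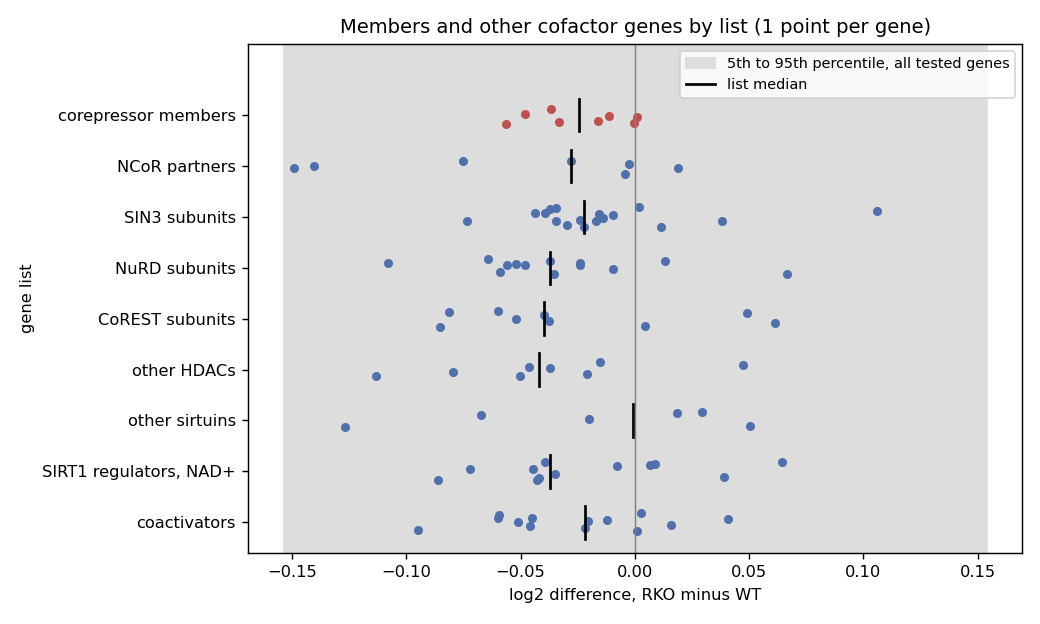
Log2 difference, RKO minus WT (x axis), of each tested gene in the list of 8 measured members and in 8 lists of other cofactor genes (rows, 1 point per gene, black bar for the list median). The grey band runs from the 5th to the 95th percentile of all tested genes, -0.15 to 0.15, and every point lies inside it.

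The receptors that recruit NCoR included 2 called genes, Nr1d1 and its neighbour on the chromosome. Of 18 tested, 2 were lower and 0 higher, beside 0.964% and 0.64% of all tested genes. Nr1d1 is the gene knocked out and the other called gene lies beside it, so this count does not describe receptors that bind NCoR in general. The other 16 did not pass. An unadjusted p under 0.05 in limma was found for 6 of the 18, beside 12.8% of all tested genes. Apart from the 2 called genes they were Nr1d2, Rxrg (log2 difference -0.24), Nr2f1 (-0.17) and Thrb (-0.15). Beside Nr1d1, Thra was lower, the thyroid hormone receptor α gene, which overlaps the end of Nr1d1 on the opposite strand (intensities of 3227 and 3436 in RKO against 4875 and 4983 in WT, log2 difference -0.57, SE 0.0583, adjusted p = 7.2e-04). Its 2 RKO arrays were below both WT arrays. Nr1d2, the paralogue that can stand in for REV-ERBα and binds the same corepressor, had intensities of 2164 and 2162 in RKO, against 1856 and 1902 in WT. Its RKO arrays were the higher ones, but the log2 difference of 0.20 did not pass (SE 0.0550, adjusted p = 0.116). It passed in limma with a filter at the 60th percentile (adjusted p = 0.0400) and with an intensity trend (adjusted p = 0.00251). It did not pass in limma with no filter (adjusted p = 0.355), after median centring (0.144) or after quantile normalization (0.111). Nor did it with an offset of 50 before log2 (0.0624), the mean of all probe sets of a gene (0.109) or the replicate number as a block (0.138).

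Some markers of the dissected tissue differed between the groups. Their lists were chosen with earlier results of these data known, so the counts below are no independent test. Of the 8 corepressor genes 0 passed, where 1.6% of all tested genes did. All 12 dopamine neuron markers were above the filter, and 8 rose in RKO, beside 0.64% of all tested genes. Their summed intensities were 19110 and 19668 in RKO, against 14692 and 14953 in WT. Of 14 leptomeningeal markers 9 fell, beside 0.964% of all tested genes, with sums of 5298 and 5326 in RKO, against 6721 and 6869 in WT. However, 3 collagen genes of that list lay above 0 without passing, Col1a1 (0.13), Col3a1 (0.080) and Col1a2 (0.069). Both lateral hypothalamic markers, Pmch and Hcrt, fell. Of 9 oligodendrocyte markers all lay below 0 with the groups apart, beside 56.8% below 0 and 41.8% apart among all tested genes. Of these 9, 1, Opalin, fell (-0.30), and the sums were 33833 and 34058 in RKO, against 36989 and 35835 in WT. The groups were also apart in every tested dopamine neuron, leptomeningeal, lateral hypothalamic and astrocyte marker. All 6 markers of oligodendrocyte precursors lay below 0 and 0 passed. Astrocyte markers went both ways, 5 of 10 above 0, with Gfap (-0.51) and Aldh1l1 (-0.31) called lower and Gja1 (0.22) the highest. In the lists of neurons (9 tested), microglia (8), endothelium and pericytes (9), choroid plexus and ependyma (9) and red blood cells (2), 0 passed. Among these, 4 endothelium and pericyte markers and 2 choroid plexus and ependyma markers had an unadjusted p under 0.05 in limma. That held for 12.8% of all tested genes, and for no marker of neurons, microglia or red blood cells. The part of these shifts in the levels of the corepressor genes was not tested.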

How the data were processed

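Expression was measured on 4 arrays, with biotinylated cRNA made from 1 µg of total RNA per the labels' protocols. The deposited values are normalized intensities, 1 for each probe set on each array, and their size shows that they are linear. Per the submitters' processing notes GCOS and RMA were used, with no version or setting given; the filtering and the genome build are not given in the sources used here. RMA as usually run makes the arrays' distributions alike, so a shift common to most genes would be removed. The 35556 probe sets included 21789 with 1 gene symbol, 1621 with several and 12146 unnamed here; the last 2 kinds were not tested.

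Intensities were taken to log2 with no pseudocount. The brightest probe set on average stood for each of 19938 genes, and a filter at the 40th percentile of the probe sets' means (an intensity of 167) left 13587. The difference of RKO from WT was fitted with lmFit and eBayes (limma 3.58.1, R 4.3.3; 2 residual and 8.73 prior degrees of freedom), two-sided, with an adjusted p under 0.05 as the call. The script was tested on simulated data. An exact permutation test of 2 against 2 arrays cannot go below p = 0.333, so none was run. The number of arrays limits the precision. No 2 arrays shared more than 5 identical values.

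Named genes were all members, the called, highest and lowest gene of each list, and Nr1d1, Sirt2, Hdac8, Sin3b, Nampt, Kdm1a, Chd4 and Thra. Coro2a, Kdm4a, Kif13a, Rxrg, Nr2f1 and Thrb were named after their values were seen. Members, lists and motifs were chosen with earlier results of these data known. Same-numbered arrays deviated from their group means with a correlation of -0.11 over genes, and nothing in the labels ties them.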

Additional observations from a re-analysis of the deposited data

How the results depend on the processing

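Under all 12 alternative settings and the crossed pairing described below, 0 of the 8 corepressor genes passed in limma, and the lowest adjusted p among them was 0.460 (Sin3a without RKO replicate 2). The number of genes called over the whole table was 218, and it was 31 with no filter on dim probe sets, 296 with a filter at the 60th percentile, 455 after median centring, 499 with an intensity trend in eBayes, and 77 (without RKO replicate 1) to 287 (without WT replicate 2) when single arrays were left out, with 109 without RKO replicate 2. The cause of these shifts was not tested. Of the 105 tested genes in the cofactor, receptor and clock lists 5 were called, Nr1d1, Thra, Arntl, Nfil3 and Cry1, against 2 with no filter, 4 to 5 when single arrays were left out, and 6 after median centring or with an intensity trend. The median log2 difference of the 8 genes, -0.025, went from -0.072 to 0.024 when single arrays were left out. With the replicate number as a replicate block 259 genes were called in all and 0 of the 8, and no call of a named gene changed. The numbers are not known to pair the arrays. With the pairing crossed, an alternative chosen after seeing the data, 696 genes were called, 7 of the 105 and 0 of the 8.

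Some differences close to 0 changed sign, none of them called. Hdac2 stood at -0.0074 after median centring, which moves every gene by the same amount. Quantile normalization gave 0.0052 for Tbl1x, 0.028 for Hdac1 and 0.0018 for Sin3a, and the mean of both probe sets gave 0.0019 for Hdac1. Leaving out single arrays gave log2 differences of -0.11 to 0.035 for Tbl1xr1, -0.038 to 0.038 for Hdac1, -0.039 to 0.041 for Hdac2, -0.12 to 0.095 for Sin3a and -0.12 to 0.058 for Sirt1. It likewise gave -0.12 to 0.042 for Nampt, -8.75e-05 to 0.10 for Sirt5, -0.0071 to 0.089 for Ppargc1b, -0.092 to 0.023 for Sin3b, -0.099 to 0.23 for Nmnat3, -0.055 to 0.093 for Ankrd11 and -0.013 to 0.11 for Hdac11. Hdac3 and Gps2 lay below 0 under every alternative run, but most of these could not turn their sign. Each gene has 1 probe set, so the filters, the trend, the probe set mean and the replicate block left its difference unchanged. Both RKO arrays lay below both WT arrays in each gene, so leaving out a single array could not turn the sign either.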
